A study of Homo sapiens with 16 samples.

Results

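All 12 libraries of HEK293 cells that overexpressed a form of RNF43 were set against the 4 libraries of cells that overexpressed GFP, and genes were kept where every construct library lay on the same side of every GFP library. HEK293 is an established human line derived from embryonic kidney. The constructs were wild-type RNF43 (WT) and the frameshift variants R117fs and G659fs, each with 4 libraries, and the controls carried GFP in place of RNF43, so every group expressed a transgene. The labels name neither the vector nor the promoter, the way the cells received it, the time after it, or whether replicates came from separate cultures, so p-values measure the spread between these libraries, which may be technical. Of 16787 genes tested, 1337 (7.96%) met the rule, 502 (2.99%) above GFP and 835 (4.97%) below. A change that the 3 constructs share cannot be told apart from an effect of GFP itself, since no group without a transgene was analysed here.

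RNF43 is a single-pass membrane protein with a RING domain on its cytosolic side. It marks Frizzled receptors with ubiquitin, they leave the cell surface, and Wnt signalling drops. R117fs shifts the reading frame in the part outside the cell, ahead of the membrane span and the RING domain, while the shift in G659fs lies behind both. Membrane and secreted proteins are folded in the endoplasmic reticulum (ER), and unfolded protein there switches on the unfolded protein response, in which the factors XBP1 and ATF6 raise the transcription of ER chaperones, folding enzymes and degradation factors. The p53 pathway is a separate stress response, in which the factor p53 raises genes of growth arrest and DNA repair.

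Total estimated counts ran from 20364357 to 46779570 per library, with the GFP libraries between 25441077 and 30937321. R117fs replicate 4 stood apart, and replicate 1 stood apart in the chi-square of gene counts. Gene by gene, the log2 levels of replicate 4 deviated from the mean of the other libraries of its group with an SD of 0.5785. No other library exceeded 0.4088, and R117fs replicate 1 was at 0.3889. The deviations of replicate 4 followed the GC content of genes (Spearman 0.7989 across genes, which are not independent replicates). In pairs of R117fs libraries, the chi-square of gene counts per degree of freedom was 70.973 to 79.392 for replicate 1 with each other library. It was 61.376 and 50.339 for replicate 4 with replicates 2 and 3, and 5.454 between replicates 2 and 3. The chi-square includes RNF43, at 30190 CPM in replicate 1 and at 79640, 94570 and 69370 CPM in replicates 2, 3 and 4. How much of each value comes from RNF43 was not tested. All 9 HEK293 markers were detected. Their summed level was 1090 to 1230 CPM in GFP libraries and 1100 to 1390 CPM in construct libraries. CPM is counts per 1000000. The marker sums in this paragraph are scaled to all gene counts of a library, RNF43 included, without TMM factors. All other CPM values are after TMM scaling. Markers of other cell types had lower sums. The 12 haematopoietic markers summed to 20.9 to 28.1 CPM in GFP and 12.5 to 21.1 CPM in constructs, with HBG1 at 0. The gut markers summed to 22.2 to 24.1 and 23.3 to 33.6 CPM, with FABP1 and PHGR1 at 0, and the fibroblast and endothelial markers to at most 79.5 and 5.24 CPM.

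RNF43 (chr17:58352500-58417595, minus strand of GRCh38) stood at 0.0013% to 0.0050% in a GFP library and at 3.02% to 9.46% in a construct library. These percentages are TMM-scaled CPM, so they differ from a plain share of the counts by the TMM factor. Its levels were 13.2, 34.3, 27.8 and 50.3 CPM in the GFP libraries, and its lowest construct library, R117fs replicate 1, held 30191 CPM. On the log2 scale the constructs stood 10.71 ± 0.51 (SE; edgeR adjusted p = 3.77e-08) above GFP, and the difference among the 3 constructs did not pass the test (edgeR adjusted p = 0.229).

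The shared changes were mostly small, and falls were more frequent and larger than rises. The median log2 fold change, as the mean of the 3 constructs minus GFP, was 0.319 in size for the 502 genes above GFP and 0.441 for the 835 below. At least 2-fold were 22 of the higher genes (0.131% of all tested) and 126 of the lower (0.751%). By edgeR's quasi-likelihood test, 4127 genes (24.6%) changed at an adjusted p under 0.05, 1848 (11.0%) upwards and 2279 (13.6%) downwards. Of these, 2814 had libraries that overlapped, while 1313 of the 1337 genes without overlap passed the test. The plot of all tested genes shows the wider spread of the lower genes. Each construct compared with GFP on its own shares the 4 GFP libraries with the others, and 859 of the 1337 genes were called in all 3 such comparisons, 311 in 2, 141 in 1 and 26 in none. Over all genes such calls were 9.85% upwards and 11.6% downwards for WT, 7.04% and 8.57% for R117fs and 11.6% and 13.8% for G659fs. Falls did not outnumber rises in every setting. With no R117fs libraries 3713 genes rose and 3660 fell by edgeR, while 1630 lay above GFP and 1847 below without overlap. Without overlap, WT alone had 2872 above and 2806 below, G659fs alone 3204 and 3152, and R117fs alone 1224 and 1543.

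**Figure D1:**
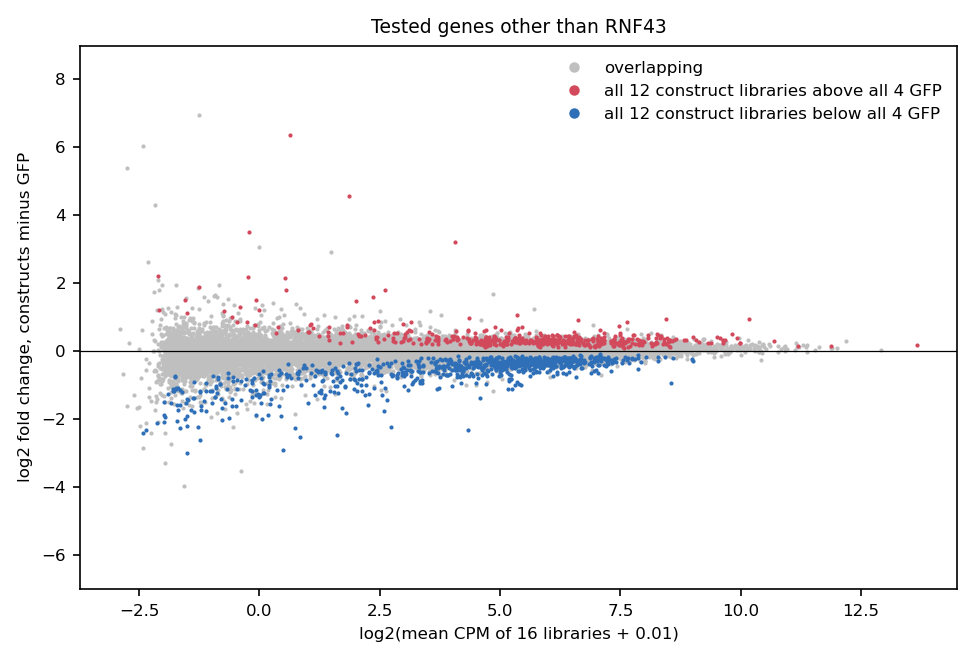
Each point is a tested gene other than RNF43. The x axis gives the log2 of its mean CPM over 16 libraries plus 0.01, and the y axis its log2 fold change, constructs minus GFP. Red points are genes with all 12 construct libraries above all 4 GFP libraries, blue points those below, grey points the rest; among genes that changed at least 2-fold, 22 are red and 126 blue.

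The genes above and below GFP differed in composition. Genes above GFP had a median GC content of 54.4% and a median transcript length of 1888 bases, genes below GFP 46.5% and 3523 bases, and all tested genes 49.5% and 2670 bases. In the 20% of genes with the lowest GC content, 5 of 3355 lay above GFP and 228 below, and in the 20% with the highest, 124 of 3355 above and 57 below. With the GC trend of each library removed, 2017 genes did not overlap, 1194 of the 1337 among them. R117fs replicate 4, whose levels followed GC content, is among the 12 construct libraries; without it 1996 genes did not overlap, and its part in the difference in GC content was not tested. The 126 genes that fell at least 2-fold were mostly of low level, 89.7% of them under 10 CPM in every group mean, and 26.2% were pseudogenes against 8.39% of all tested genes. Reads of pseudogenes and of near-identical copies are divided by estimation, so these values are uncertain.

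**Figure D2:**
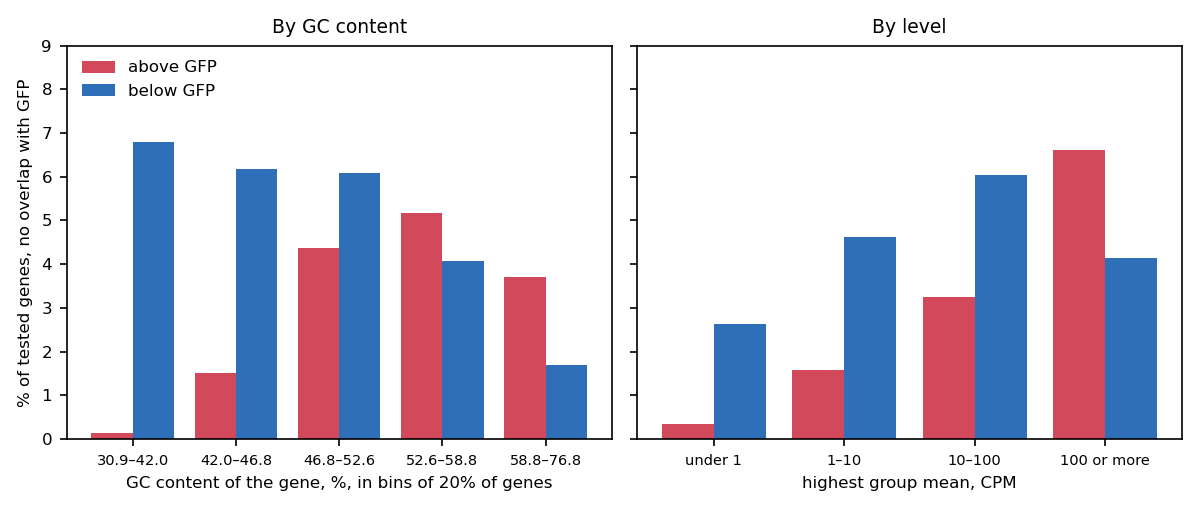
Bars give the share of tested genes, in percent, whose 12 construct libraries lay above (red) or below (blue) all 4 GFP libraries, by GC content in bins of 20% of the genes (left) and by the highest group mean in CPM (right). In the lowest GC bin 0.149% lay above and 6.8% below; in the highest, 3.7% above and 1.7% below. From 100 CPM upwards 6.61% lay above and 4.13% below.

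Each count over a gene list below is to be read against all tested genes, of which 11.0% rose, 13.6% fell, 2.99% lay above GFP without overlap and 4.97% below. Of the 36 gene lists examined, the ER chaperones and folding enzymes had the largest share of members without overlap. Of 24 unfolded protein response genes, all tested, 16 rose and none fell, and 13 (54.2%) had every construct library above every GFP library. The median log2 fold change over the 24 was 0.433, against -0.000215 over all genes. The members without overlap were DERL3, SDF2L1, HSPA5, PDIA4, MANF, HYOU1, HSP90B1, CRELD2, DNAJB11, PDIA6, CALR, XBP1 and PDIA3, with log2 fold changes from 0.38 to 1.60 and edgeR adjusted p of at most 0.00161. Without R117fs replicates 1 and 4, 15 of the 24 did not overlap and 18 rose. With no R117fs library at all, 15 did not overlap, and the median was 0.296.

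HSPA5 encodes BiP, the main Hsp70 chaperone of the ER lumen. It stood at 652, 649, 620.0 and 600.0 CPM in the GFP libraries, at 1087, 1085, 1081 and 1077 CPM in WT, at 1254, 2427, 2649 and 2146 CPM in R117fs and at 833, 789.9, 773 and 822 CPM in G659fs. No construct library reached down to GFP, the R117fs libraries were the highest, and replicate 1 was the lowest of these. The log2 fold change was 0.96 ± 0.12 (SE; edgeR adjusted p = 2.47e-05), made up of 0.78 ± 0.14 with WT, 1.75 ± 0.15 with R117fs and 0.35 ± 0.14 with G659fs. Of these, G659fs taken alone did not pass the test (edgeR adjusted p = 0.0766).

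SDF2L1, a partner of BiP in the ER lumen, ranged over 31 to 103 CPM (median 38.2) in the 12 construct libraries, against 24.1, 23, 18.9 and 20.3 CPM in GFP, a log2 fold change of 1.05 ± 0.16 (SE; edgeR adjusted p = 0.000157). PDIA4, a protein disulfide isomerase, was at 196, 180.1, 189 and 173 CPM in GFP and at 231 to 831 CPM (median 264) in constructs, and changed by 0.94 ± 0.13 (SE; edgeR adjusted p = 4.17e-05). In R117fs its replicate 1 held 405 CPM and the other libraries 776 to 831 CPM, while the G659fs libraries held 231 to 241 CPM. DERL3, which takes part in the export of misfolded ER proteins for degradation, was a low gene, at 2.01, 1.22, 1.66 and 1.38 CPM in GFP and 2.05 to 17.5 CPM (median 3.54) in constructs, and it changed by 1.60 ± 0.22 (SE; edgeR adjusted p = 4.39e-05). Its lowest construct library, of G659fs, lay just above its highest GFP library. MANF, an ER-resident secreted factor, rose by 0.93 on the log2 scale, HYOU1, an ER chaperone of the Hsp70 class, by 0.74, and HSP90B1, the ER form of Hsp90, by 0.51.

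The remaining members of the list overlapped with GFP in at least 1 library. HERPUD1, an ER membrane protein of the degradation pathway, rose by 0.51 ± 0.08 (SE; edgeR adjusted p = 0.000272), but its G659fs libraries mixed with GFP. DNAJB9, a BiP co-chaperone, and OSTC, of the glycosylation complex, also rose, by 0.54 and 0.38, each with an R117fs library among the GFP values. The sensors did not pass the test: ERN1, which encodes IRE1, was at -0.04 ± 0.07 (SE; edgeR adjusted p = 0.765) and ATF6 at -0.01 ± 0.07 (SE; edgeR adjusted p = 0.968). XBP1 itself rose by 0.40 ± 0.05 (SE; edgeR adjusted p = 5.11e-05).

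**Figure D3:**
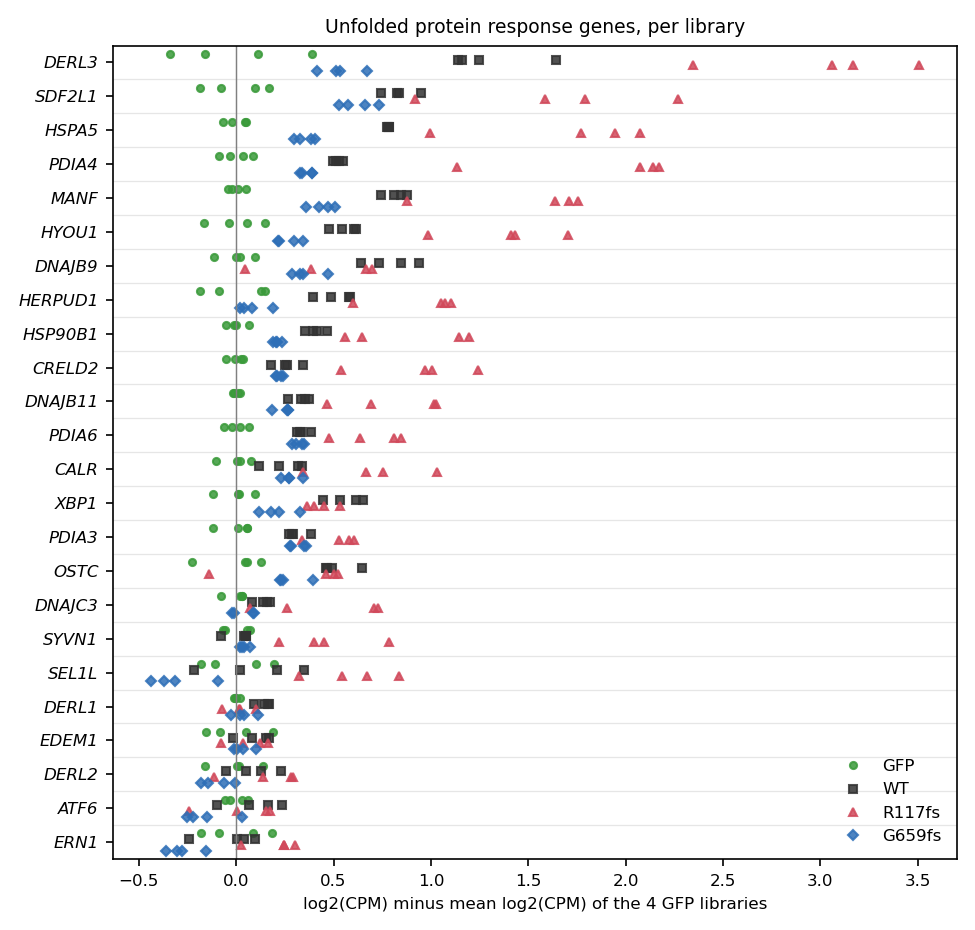
The 24 unfolded protein response genes, ordered by fold change. The x axis gives log2(CPM) minus the mean of the 4 GFP libraries, and each point is a library, with 4 of GFP (green circles), WT (black squares), R117fs (red triangles) and G659fs (blue diamonds). In HSPA5, GFP libraries hold 600.0 to 652 CPM, G659fs 773 to 833, WT 1077 to 1087 and R117fs 1254 to 2649.

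All 13 members without overlap differed among the constructs (edgeR adjusted p under 0.05), against 215 of the 1337 genes (16.1%) and 3051 of all tested (18.2%). The largest fold change was in R117fs for 12 of the 13 and in WT for XBP1. Their median log2 fold change from GFP was 0.519 with WT, 0.954 with R117fs and 0.314 with G659fs. As a percentage after TMM scaling, RNF43 stood at 3.02% in R117fs replicate 1, the lowest of that group for HSPA5 and PDIA4. It stood at 6.94% to 9.46% in the other R117fs libraries. The part of the RNF43 level in this was not tested.

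Promoters of the ER genes carry known binding sequences of the XBP1 and ATF6 factors, and they are shown here because they belong to the members that moved together. The ER stress response element (ERSE), searched on both strands as CCAAT, 9 bases of any kind and CCACG, in the 250 bases before each start site, was present in 6 of the 11 members without overlap whose promoter was matched by symbol to RefSeq sequences of GRCh38.p14. Of the 12133 tested genes with a matched promoter 19 (0.157%) held it, and of all 35116 promoters of that collection 0.074%. The related ERSE-II, searched as ATTGG, 1 base of any kind and CCACG, was in the windows of SDF2L1 and HYOU1, in 14 of the 12133 (0.115%) and in 0.0513% of the collection, and among the genes below GFP it was in that of CNKSR1, which fell by 1.53 on the log2 scale. A match can share its ATTGG or CCACG with an ERSE match. Over all tested genes only 72.3% had a matched promoter, so no share is given for the 1337 genes. A match is a description of these letters and does not show a bound site. The sequences follow, 5′ to 3′ on the strand of the gene, with ERSE in capitals and up to 40 bases on each side. The HSPA5 element (chr9:125241351-125241449, minus strand) begins 66 bases before the start and the XBP1 element (chr22:28800570-28800661, minus strand) 52 bases before it. HSP90B1 (chr12:103930176-103930379, plus strand) holds 2 elements, at 194 and 89 bases. The other windows are CALR (chr19:12938359-12938442, plus strand), CRELD2 (chr22:49918514-49918612, plus strand) and PDIA6 (chr2:10812813-10812911, minus strand).
HSPA5: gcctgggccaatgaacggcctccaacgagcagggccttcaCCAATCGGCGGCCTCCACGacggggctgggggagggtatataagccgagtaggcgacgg
XBP1: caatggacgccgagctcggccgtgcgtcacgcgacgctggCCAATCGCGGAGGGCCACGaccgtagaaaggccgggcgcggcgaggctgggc
HSP90B1: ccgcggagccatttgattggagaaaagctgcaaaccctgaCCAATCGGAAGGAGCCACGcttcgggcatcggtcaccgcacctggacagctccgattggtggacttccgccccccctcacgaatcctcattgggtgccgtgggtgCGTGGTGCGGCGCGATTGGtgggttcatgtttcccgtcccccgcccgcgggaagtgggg
CALR: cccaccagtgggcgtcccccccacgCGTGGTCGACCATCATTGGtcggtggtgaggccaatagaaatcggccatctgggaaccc
CRELD2: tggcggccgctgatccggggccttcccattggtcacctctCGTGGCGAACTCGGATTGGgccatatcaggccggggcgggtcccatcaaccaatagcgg
PDIA6: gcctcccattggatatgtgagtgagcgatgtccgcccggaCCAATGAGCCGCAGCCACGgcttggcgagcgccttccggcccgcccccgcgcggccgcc

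In HSPA5, PDIA6 and XBP1 and at the far element of HSP90B1 the element runs in the direction of the gene, with CCAAT ahead of CCACG, and in CALR and CRELD2 it is reversed. Outside the list, 4 more genes above GFP without overlap hold an ERSE, TRIM5, SERP1, SYNPO and FRG2B, with log2 fold changes of 0.59, 0.46, 0.40 and 2.14. FRG2B was among the largest rises, and its window (chr10:133626799-133626897, minus strand) is shown for comparison with the ER genes.
FRG2B: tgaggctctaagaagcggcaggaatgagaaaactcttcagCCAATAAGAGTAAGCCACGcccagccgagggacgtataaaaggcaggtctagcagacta

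FRG2B was at 0.418, 0.478, 0.215 and 0.41 CPM in GFP and at 0.918 to 3.06 CPM (median 1.63) in constructs, a log2 fold change of 2.14 ± 0.25 (SE; edgeR adjusted p = 1.08e-05). It belongs to a family of near-identical copies, so its reads are divided by estimation. BHLHA15, a transcription factor of secretory cells known as MIST1, rose from 0.19, 0.147, 0.369 and 0.112 CPM to 0.527 to 1.5 CPM (median 0.99), by 2.20 ± 0.32 (SE; edgeR adjusted p = 9.99e-05). Its 4 GFP libraries held 24 estimated counts in all and its 12 construct libraries 402.

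Heat shock and signalling genes were among the other large rises. HSPA6, an inducible cytosolic Hsp70, stood at 1.71, 1.84, 1.94 and 1.82 CPM in GFP and at 2.36 to 64.9 CPM, with a median of 15.6 CPM, in constructs. The 4 WT libraries spread from 11.1 to 64.9 CPM, while R117fs replicate 1, at 2.36 CPM, lay just above GFP. The log2 fold change was 3.22 ± 0.57 (SE; edgeR adjusted p = 0.00133), and its near-identical neighbour HSPA7 moved with it by 3.52, from counts that may in part be those of HSPA6. Of 18 cytosolic heat shock genes tested, HSPA6 was the only rise without overlap. HSPH1, a co-chaperone of Hsp70, fell from 184, 222, 189 and 239 CPM to 87.4 to 166 CPM (median 148), by 0.57 on the log2 scale (edgeR adjusted p = 4.34e-05), and 5 genes of the list fell in all, or 3 without GFP replicate 2 or 4.

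IL32, a cytokine, stood at 2.05, 1.91, 1.75 and 2.27 CPM in GFP and at 2.33 to 10.8 CPM (median 7.96) in constructs, and rose by 1.80 ± 0.18 (SE; edgeR adjusted p = 2.60e-06). R117fs replicate 1, at 2.33 CPM, was its lowest construct library and lay just above the highest GFP library. ROS1, a receptor tyrosine kinase, went from 0.342, 0.515, 0.645 and 0.335 CPM to 0.77 to 3.18 CPM (median 1.94), by 1.81 ± 0.19 (SE; edgeR adjusted p = 4.17e-06), with 2.01 with WT, 0.98 with R117fs and 2.43 with G659fs. IL32 was the only rise without overlap among 20 NF-kappaB and inflammatory genes tested, of which 10 rose and 1, the NF-kappaB subunit gene REL, fell. Without GFP replicate 4, 5 of the 20 rose.

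PLPP5, a lipid phosphatase, was at 12.7, 11.1, 11.9 and 10.7 CPM in GFP and 15.7 to 33.2 CPM (median 24.8) in constructs, a rise of 0.97 ± 0.13 (SE; edgeR adjusted p = 5.83e-05). NIPAL4, a magnesium transporter, MOV10L1, a germline RNA helicase, and SLC22A31, of a solute carrier family, were low genes that rose by 1.51, 1.22 and 1.49 on the log2 scale. SLC22A31 was at 5.47 to 15.4 CPM in R117fs and at 1.68 to 2.53 CPM in the other constructs, against 1.67, 1.14, 1.04 and 1.16 CPM in GFP. LENG9 had 0, 1, 1 and 0 estimated counts in the GFP libraries and 761 in the constructs together, at 2 to 149 each. Scaled to the total counts, that is a ratio of 98.4, with an exact 95% binomial interval of 27.1 to 814 that covers counting error only. Leaving out any 1 of the 4 GFP libraries raised its edgeR adjusted p above the threshold, to between 0.0538 and 0.0854.

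Of 24 integrated stress response genes, which follow the factor ATF4, 14 rose (58.3%, against 11.0% of all tested genes) and none fell, and 3 lay above GFP without overlap (12.5%, against 2.99%). The median over the list was 0.252. Leaving out GFP replicate 2 gave 8 rises and leaving out GFP replicate 4 gave 7. Members free of overlap were 5 when GFP replicate 1 was left out and 7 when R117fs replicate 4 was. ATF3, a stress-induced transcription factor, went from 149, 128, 139 and 118 CPM to 169.7 to 231 CPM (median 188), by 0.55 ± 0.06 (SE; edgeR adjusted p = 6.24e-06). The mitochondrial enzymes PCK2 and SHMT2 rose by 0.37 and 0.33. Of 20 cytosolic aminoacyl-tRNA synthetases, which charge transfer RNAs, 9 rose (45.0%) and 1 fell, and IARS, KARS and YARS did not overlap, with log2 fold changes of 0.29, 0.23 and 0.24. Without GFP replicate 3 or 4, 5 of them rose, and without R117fs replicate 4, 5 did not overlap. Among 51 ribosomal protein genes, RPL4, RPL12 and RPSA were above GFP in every construct library, by 0.14 to 0.25 on the log2 scale. In this list 6 genes rose (11.8%, near the 11.0% of all tested genes), but 14, 10 and 18 without R117fs replicate 2, 3 and 4, and up to 8 did not overlap with 1 library left out, the most without R117fs replicate 2.

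MYC, which encodes a growth-promoting transcription factor and is both an immediate early gene and a Wnt target, stood at 178, 168, 158 and 167 CPM in GFP and 195 to 290.4 CPM (median 234) in constructs. It rose by 0.47 ± 0.08 (SE; edgeR adjusted p = 0.000398) and was the only member without overlap in either list, although 3 immediate early genes did not overlap without R117fs replicate 1. Of 14 Wnt/beta-catenin targets tested 3 rose and none fell, with a median of 0.087; 1 rose without GFP replicate 3, and 5 without WT replicate 1 or R117fs replicate 4. Of 19 Wnt receptor genes 2 rose (10.5%, near the 11.0% of all tested genes), or 4 and 7 without R117fs replicate 2 and 4, and none was free of overlap. Of 24 immediate early genes 9 rose, or 5 without GFP replicate 3. Such a call tests the mean of the 3 constructs, and several members did not rise with R117fs. EGR1, FOS and ARC had 2.44, 1.48 and 0.84 with WT and 2.84, 2.18 and 1.28 with G659fs. With R117fs these genes were at -0.20, -0.07 and 0.005, and EGR3 and FOSB at -0.005 and -0.04, while MYC had 0.34.

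Among glycolytic genes, several enzymes rose together while 2 fell. Of 19 tested, 12 rose and 2 fell, and 6 (31.6%) did not overlap, 4 above GFP and 2 below. Without GFP replicate 1 or R117fs replicate 4, 7 lay above. TPI1 went from 408, 397, 371 and 373 CPM to 434 to 554 CPM (median 494), by 0.34 ± 0.06 (SE; edgeR adjusted p = 0.000375), and GAPDH, GPI and PGAM1 rose by 0.30, 0.31 and 0.28. ENO2, the neuronal enolase, fell from 45, 49.4, 45.5 and 49.1 CPM to 29.2 to 38.1 CPM (median 34.1), by 0.47 on the log2 scale (edgeR adjusted p = 6.66e-06).

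PGK1, phosphoglycerate kinase, was the other fall, and its direction depended on how transcript length was treated. Its summed level was 569, 618, 541 and 618 CPM in GFP and 264 to 338 CPM (median 317) in constructs, a log2 change of -0.94 ± 0.04 (SE; edgeR adjusted p = 2.15e-10). Its longest transcript, of 4887 bases, took 95.08% to 98.84% of the gene's estimated counts in GFP libraries and 49.89% to 53.14% in construct libraries. Short transcripts made up the rest, among them one of 702 bases, with 0.979% to 4.32% in GFP and 21.0% to 25.8% in constructs. With the effective transcript length as an offset the direction turned, to 1.38 (edgeR adjusted p = 2.85e-11). PGK1 is 1 of 12 listed genes, 6 of them tested, whose promoter, intron or terminator is often built into expression vectors. Of the 6, EEF1A1 and ACTB rose and PGK1 and FTL fell, and PGK1 and EEF1A1 alone did not overlap. The rise of ACTB was lost without GFP replicate 2, 3 or 4, WT replicate 2 or G659fs replicate 4, and the fall of FTL without GFP replicate 1, 2 or 4. Which such parts the constructs hold was not given in the sources used here.

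EEF1A1, which encodes a translation elongation factor, was above GFP in every construct library, by 0.17 ± 0.04 (SE; edgeR adjusted p = 0.00384), and at -0.03 (edgeR adjusted p = 0.796) with the length offset. Over all genes, 111 of 37871 transcripts (0.293%) had shares of their gene at least 10 percentage points apart without overlap, in 84 genes. The largest differences were in a non-coding transcript of FTCD (1260 bases), with a mean of 55.2% in GFP and 9.38% in constructs, and in the longest transcript of PGK1. Transcripts of FILIP1 (4051 bases) and ZNF484 (3960 bases) fell by 34.1 and 31.0 percentage points while the summed levels of FILIP1 and ZNF484 did not change by the test (edgeR adjusted p = 0.763 and 0.886).

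Of 23 collagen and matrix genes 12 rose (52.2%) and 1 fell, and 5 (21.7%) lay above GFP in every construct library, or 8 without GFP replicate 1. SPARC, a matrix glycoprotein, went from 3.38, 3.46, 3.01 and 3.35 CPM to 3.76 to 5.48 CPM (median 4.41), by 0.45 ± 0.09 (SE; edgeR adjusted p = 0.00118). The laminin genes LAMA1, LAMB1 and LAMA4 rose by 0.36, 0.26 and 0.22. NEFM, a neurofilament gene known from HEK293 cells, stood at 118, 127, 105 and 136 CPM in GFP and 151 to 313 CPM (median 224) in constructs, a rise of 0.87 ± 0.15 (SE; edgeR adjusted p = 0.000462), and NEFL rose by 0.45. Of the 9 HEK293 markers 3 rose and 1 fell, with a median of 0.089. BEX5 rose by 0.90, from 2.74, 4.05, 2.92 and 3.43 CPM to 4.11 to 8.26 CPM (median 5.6). Of the 11 TCEAL and BEX genes tested 1 rose, 1 fell and 4 lay above 0, with a median of -0.06. CDX2, an intestinal transcription factor, rose by 0.33, or by 0.17 (edgeR adjusted p = 0.174) with the length offset. It was the only one above 0 of the 4 gut markers tested, whose median was -0.319.

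The largest falls were in genes of low level and of varied function. FTCD, an enzyme of histidine breakdown, stood at 7.07, 8.21, 7.99 and 8.23 CPM in GFP and at 1.2 to 1.9 CPM, with a median of 1.47 CPM, in constructs, a change of -2.45 ± 0.09 (SE; edgeR adjusted p = 9.54e-12). These sums include the non-coding transcript described above, which held a mean of 55.2% of the FTCD counts in GFP and 9.38% in constructs. DHRS2, a short-chain dehydrogenase and the most abundant of the 15 genes with the largest falls, went from 50.9, 47, 39.7 and 53.9 CPM to 4.4 to 28.2 CPM (median 7.84), by -2.31. ALPK3, a kinase gene known from heart muscle, went from 15.5, 15.3, 14.9 and 15.8 CPM to 1.38 to 5.82 CPM (median 4.59), by -2.24. In each of these the highest construct library lay clearly below the lowest GFP library, and edgeR adjusted p was at most 1.67e-06.

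**Figure D4:**
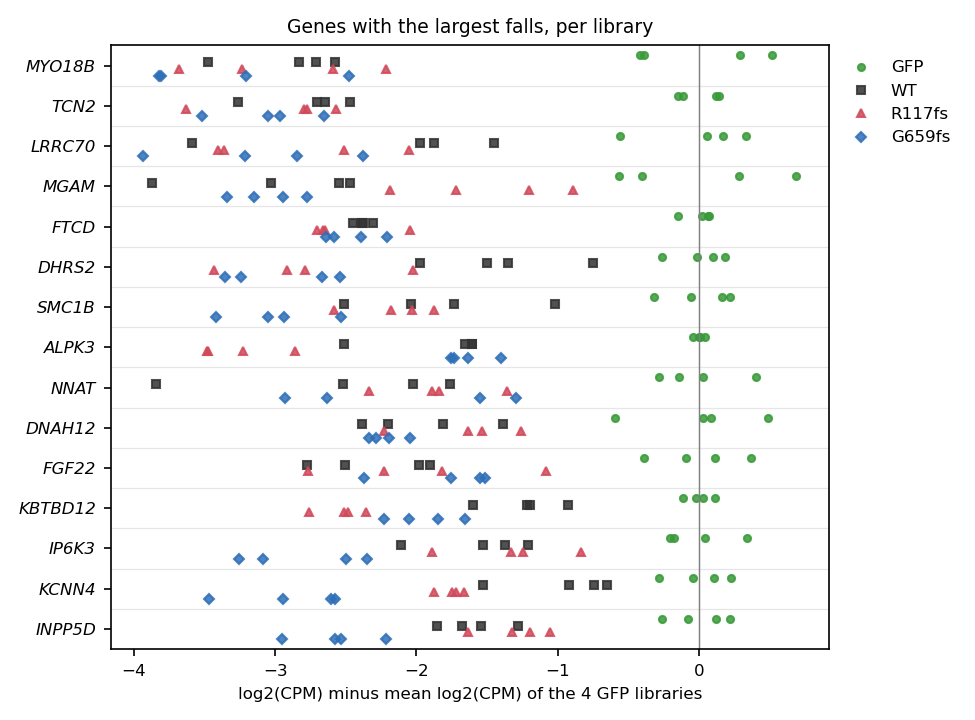
The 15 genes with the largest falls among genes at 1 CPM or more on the higher side. The x axis gives log2(CPM) minus the mean of the 4 GFP libraries, and each point is a library, with 4 per group. All construct libraries lie left of all GFP libraries in each gene; in FTCD constructs hold 1.20 to 1.90 CPM and GFP 7.07 to 8.23 CPM.

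TCN2, a vitamin B12 carrier, fell from 4.29, 3.57, 3.66 and 4.36 CPM to 0.32 to 0.713 CPM (median 0.574), a change of -2.91 ± 0.13 (SE; edgeR adjusted p = 2.03e-10). MYO18B, a muscle myosin, changed by -2.99, LRRC70, a leucine-rich repeat protein, by -2.62, and MGAM, a starch-digesting enzyme of the gut, by -2.52. SMC1B, the meiotic cohesin subunit, NNAT, an imprinted membrane protein, and FGF22, a growth factor, changed by -2.27, -2.01 and -1.96. KCNN4, a calcium-activated potassium channel, INPP5D, the lipid phosphatase SHIP1 and a haematopoietic marker, IP6K3, an inositol phosphate kinase, and KBTBD12 changed by -1.86, -1.83, -1.86 and -1.90. INPP5D was at 6.88, 7.88, 6.05 and 8.45 CPM in GFP and 0.938 to 3.49 CPM (median 2.3) in constructs, and was the only one of 8 tested haematopoietic markers without overlap.

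Beyond these 15, a wide gap between the nearest libraries of GFP and constructs marked 6 more falls, CFAP43, GPNMB, CNKSR1, HOXB4, PILRA and SCN11A. HOXB4, a homeobox factor, was at 13.6, 14.5, 14 and 14.8 CPM in GFP and at 5.82 to 7.83 CPM (median 6.28) in constructs, a change of -1.13 ± 0.06 (SE; edgeR adjusted p = 2.49e-09). PILRA, an immune receptor, CNKSR1, a scaffold of RAS signalling, and SCN11A, a sodium channel, changed by -1.23, -1.53 and -1.30. GPNMB, a membrane glycoprotein of lysosomes and melanosomes, went from 4.67, 4.45, 6.08 and 4.69 CPM to 0.616 to 2.4 CPM (median 1.74), by -1.63 ± 0.13 (SE; edgeR adjusted p = 1.72e-07).

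Most targets of p53 fell. Of 23 tested, 18 fell and none rose, 9 (39.1%) had every construct library below every GFP library, and the median log2 fold change was -0.46. BTG2, an antiproliferative gene, went from 58.5, 65.3, 51.6 and 66.5 CPM to 23.4 to 35.2 CPM (median 26.9), by -1.12 ± 0.08 (SE; edgeR adjusted p = 7.68e-08). DDB2, which recognises ultraviolet damage in DNA, went from 64.8, 71.9, 56.5 and 78.8 CPM to 27.6 to 47 CPM (median 34.3), by -0.98 ± 0.08 (SE; edgeR adjusted p = 1.57e-07). TP53INP1, a stress-induced regulator of cell death and autophagy, went from 31.3, 35.6, 36.4 and 36.5 CPM to 12.5 to 22.5 CPM (median 18.8), by -0.93. The groups lay well apart in all 3 genes.

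FDXR, a mitochondrial reductase, went from 36, 40.2, 32.6 and 42.7 CPM to 19.2 to 29.3 CPM (median 23), by -0.73. SPATA18, of mitochondrial quality control, POLH, a DNA polymerase that copies past damage, RRM2B, a ribonucleotide reductase subunit, SESN1, a sestrin, and CDKN1A, the cell cycle inhibitor p21, fell without overlap by 0.71, 0.65, 0.49, 0.46 and 0.43 on the log2 scale. MDM2, the p53 antagonist, fell by 0.29 (edgeR adjusted p = 0.0206) with overlap, and CCNG1, GDF15, BBC3, PLK3 and TNFRSF10B did not pass the test. Of the 9 members without overlap 3 differed among the constructs, and the median was -0.681 with WT, -0.577 with R117fs and -0.915 with G659fs. Without R117fs replicates 1 and 4, 19 fell and 12 did not overlap.

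**Figure D5:**
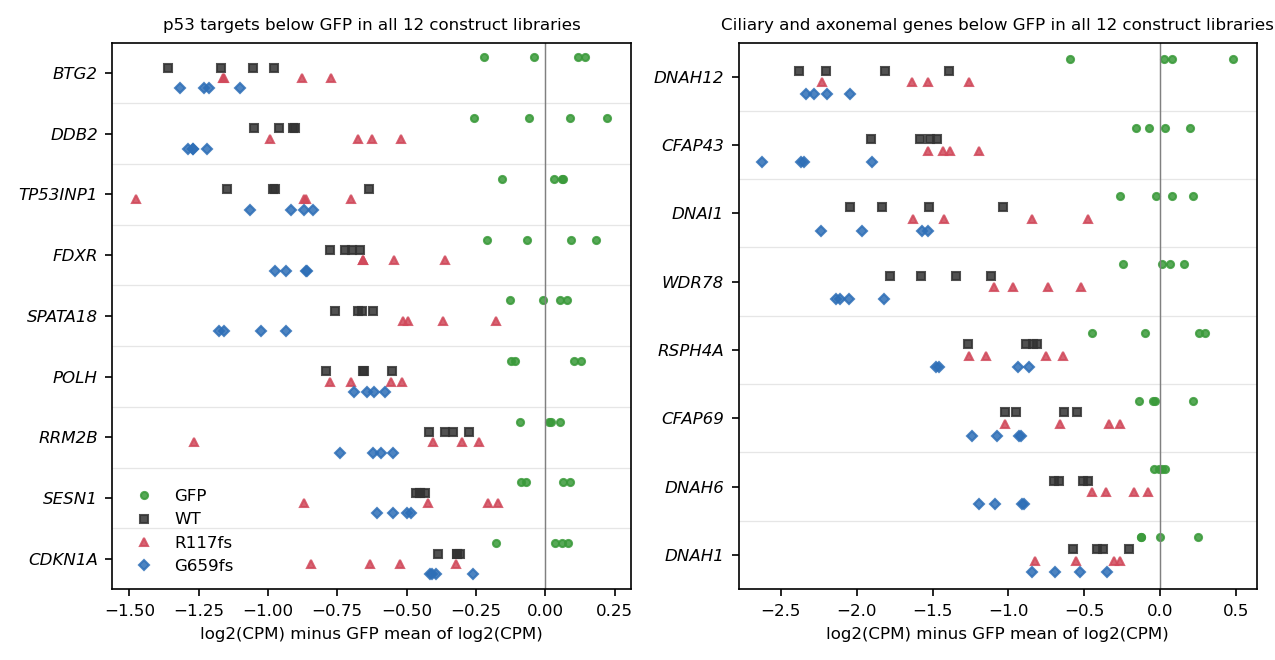
Left, the 9 p53 targets, and right, the 8 ciliary and axonemal genes with every construct library below every GFP library. The x axes give log2(CPM) minus the mean of the 4 GFP libraries, and each point is a library, with 4 per group. BTG2 lies at 51.6 to 66.5 CPM in GFP and 23.4 to 35.2 in constructs, CFAP43 at 11.2 to 14.3 in GFP and 2.02 to 5.44 in constructs.

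Genes of the motile cilium, which is built on dynein arms and radial spokes, were the other list with a large share below GFP. Of 30 tested, 15 fell and CFAP45 rose, a call lost when any 1 of several libraries was left out, 8 (26.7%) did not overlap, all below GFP, and the median was -0.413. CFAP43 stood at 11.8, 12.7, 11.2 and 14.3 CPM in GFP and 2.02 to 5.44 CPM (median 4.23) in constructs, a change of -1.77 ± 0.10 (SE; edgeR adjusted p = 2.27e-09). WDR78, a dynein assembly factor, went from 9.65, 12, 11.6 and 12.8 CPM to 2.59 to 7.97 CPM (median 4.16), by -1.43. The dynein chains DNAH12 and DNAI1 changed by -1.98 and -1.52, from means of at most 2.32 CPM in GFP. RSPH4A, of the radial spoke head, and CFAP69, DNAH6 and DNAH1 changed by -1.03, -0.78, -0.62 and -0.49. In all 8 the largest fall was in G659fs, and the medians were -1.2 with WT, -0.885 with R117fs and -1.49 with G659fs; 3 of the 8 differed among the constructs. With the length offset 9 fell and 3 did not overlap. FOXJ1, the main transcription factor of motile cilia, fell by 0.70 (edgeR adjusted p = 0.0086) with overlap.

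Smaller groups held a few further falls. Of 22 autophagy and lysosome genes 10 fell (45.5%, against 13.6% of all tested genes) and none rose, and GPNMB, GABARAPL1, LAMP1 and NPC1 lay below without overlap (18.2%, against 4.97%), or 7 without GFP replicate 1. LAMP1, a lysosomal membrane protein, went from 92.6, 86.2, 93 and 83.6 CPM to 62.3 to 79.6 CPM (median 74.9), by -0.26, and NPC1, a cholesterol exporter of lysosomes, by -0.25. KDM3A, a histone demethylase induced by hypoxia, fell by 0.50, while BHLHE40 and PFKFB3 of the same list of 19 rose by 0.34 and 0.27; 4 of that list lay above GFP without R117fs replicate 4. TRA2A, a splicing factor, changed by -0.35 ± 0.07 (SE; edgeR adjusted p = 0.000795), and PRC1, a cytokinesis protein, by -0.19. NECTIN4, an adhesion molecule, went from 9.92, 8.39, 9.22 and 10.1 CPM to 1.7 to 8.26 CPM (median 4.8), by -1.07 ± 0.10 (SE; edgeR adjusted p = 1.30e-06).

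Several lists had no member free of overlap, and their few calls depended on single libraries. Of 24 interferon-stimulated genes 4 rose and 2 fell, but 2 rose without GFP replicate 3 or 4, and 7 rose and 4 fell without R117fs replicate 4. Of 17 genes of RAS/MAPK output 3 rose and 1 fell, with 1 rising without GFP replicate 3. Of 16 YAP/TAZ targets 2 rose and 3 fell, with 1 falling without GFP replicate 3. Of 21 DNA replication genes 1 rose and 3 fell, but none fell without GFP replicate 1, 1 fell without GFP replicate 2 or 4, WT replicate 4 or G659fs replicate 2 or 3, and 3 rose without R117fs replicate 4. Of 28 proteasome genes 1 rose and 1 fell, but 7 rose without R117fs replicate 4. In the replication-dependent histones, which lack poly(A) tails, 1 of 10 rose and 1 fell.

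Genes of cholesterol synthesis and of mitochondrial DNA showed the same dependence. Of 23 cholesterol genes 11 rose and 1 fell, and 3 (13.0%) did not overlap, among them NSDHL, a sterol enzyme, with 0.23. Leaving out GFP replicate 1, 2, 3 or 4 gave 5, 6, 3 or 5 rises, and leaving out R117fs replicate 4 gave 17, with 6 free of overlap. Of 13 mitochondrially encoded proteins 4 rose, and MT-ATP8, a subunit of ATP synthase, did not overlap, with 0.31; 2 rose without GFP replicate 1, 2 or 3, and 7 rose and 5 did not overlap without GFP replicate 4. Of 15 TGF-beta and BMP targets only PMEPA1, an inhibitor of SMAD signalling, did not overlap, with 0.22.

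How alike the constructs were varied between genes. Of the 1337 genes 215 (16.1%) differed among the constructs by edgeR, against 2836 of the 15450 other genes (18.4%). Among genes that changed at least 2-fold, the 5 with the most alike fold changes were TNS2, CREBRF, SMG1P2, FOXD4L5 and NUTM2B. TNS2, a focal adhesion protein, had log2 fold changes of -1.09 with WT, -1.10 with R117fs and -1.07 with G659fs. CREBRF, a negative regulator of the ER-bound factor CREB3, stood at 54, 68.9, 56 and 76.2 CPM in GFP and 18.8 to 36.6 CPM (median 29.2) in constructs, with -1.15 with WT, -1.10 with R117fs and -1.08 with G659fs. Of the same genes, the 5 with the lowest edgeR p for a difference among constructs were DERL3, SLC22A31, ROS1, NECTIN4 and ALPK3; by the range of the construct means on the log2 scale HSPA6 (2.35) and KCNN4 (1.74) differed more than ROS1 (1.37), NECTIN4 (1.57) and ALPK3 (1.59). NECTIN4 had -0.32 with WT, -0.99 with R117fs and -1.91 with G659fs (edgeR adjusted p = 7.00e-06 among constructs), DERL3 1.28 with WT, 3.02 with R117fs and 0.50 with G659fs, and ALPK3 -1.79 with WT, -3.29 with R117fs and -1.63 with G659fs.

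At the edge of the rule, among genes of at least 10 CPM, the groups almost touched. Just inside were PDZRN3, with GFP up to 8.71 CPM and constructs from 8.72, and likewise SLC25A11, ZWINT and SENP6. Just outside were C1orf115, EAF1, TAPT1 and MAFK; in EAF1 GFP came down to 78.7 CPM and constructs reached 78.8.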

How the data were processed

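RNA sequencing of 16 HEK293 libraries in 4 groups of 4 was analysed. The authors ran kallisto 0.45.1 with GRCh38, per the submitters' processing notes, against an annotation whose release was not given in the sources used here. Per the file headers, each deposited table lists an estimated count and a TPM value for each of 178136 transcripts, with an effective length. Identifiers without version matched GENCODE 29 for 162453 of them (91.2%); the rest, 1.904% to 2.216% of a library's counts, were left out. Estimated counts were summed per gene and rounded. Of 28028 genes with counts, 16787 passed filterByExpr and entered the test, made with edgeR 4.0.16 under R 4.3.3 with TMM scaling, robust dispersions, a quasi-likelihood fit of all 4 groups, the contrast of the mean of the 3 constructs minus GFP, and Benjamini-Hochberg adjustment over all genes with a threshold of 0.05. The common biological coefficient of variation was 0.103. Fold changes are log2 values with standard errors. Libraries did not overlap where, on TMM-scaled CPM, the lowest of the higher side was above the highest of the other. Transcript shares are the estimated counts of a transcript as a percentage of its gene's. They cover transcripts with a mean share of at least 5% on a side in genes with at least 20 counts in every library.

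The 1337 genes, the 36 gene lists and the tests were chosen with earlier results of these data known, so lists are described by counts and medians without tests of their own. Genes named were RNF43; the 15 largest rises and falls among genes without overlap at an adjusted p under 0.05, at 1 CPM or more on the higher side and with a gene symbol; the 6 widest gaps; 4 genes just inside and 4 just outside the rule; up to 4 members per list and direction; the 5 most alike and 5 most different among constructs; the 6 largest transcript shifts; and genes whose parts are used in vectors. Further members of the ER, p53, ciliary and laminin groups were named after their values were seen.

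The procedure was run on simulated counts with the same dispersion for every gene, no difference among constructs and no library apart from its group. That run therefore does not bear on libraries such as R117fs replicates 1 and 4. Libraries of the same replicate number were at most weakly correlated. Across groups, 24 same-numbered pairs of libraries had r from -0.0619 to 0.1603 (median 0.0338). Other pairs had r from -0.203 to 0.179 (median -0.0159). The main fit has no block, and the fit with one is given below. No library was a duplicate of another in its group: the lowest chi-square per degree of freedom of 24 pairs was 3.527. Alternatives were DESeq2 1.42.0, other scalings and filters, a length offset, a GC correction and leaving out libraries or groups. Promoters came from RefSeq on GRCh38.p14. No strand setting was named in the sources used here, and without one the reads of a gene and of its antisense or overlapping neighbour are mixed.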

Additional observations from a re-analysis of the deposited data

Results flagged for a closer look

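Among the genes named by rule, 18 of 420 groups of 4 libraries had a highest or lowest library whose gap to its nearest neighbour took up more than 0.829 of the group's range, the 95% critical value of Dixon's test for 4 values, which chance alone exceeds in about 1 of 20 groups. Within GFP the library apart was the lowest for MOV10L1 (0.91 of the range), EEF1A1 (0.871), TRA2A (0.866) and TP53INP1 (0.831), and the highest for SCN11A (0.941) and GPNMB (0.854). Within R117fs it was the lowest for IL32 (0.901) and PDIA4 (0.871), both replicate 1, and the highest for FTCD (0.93) and FTL (0.844). Within WT it was the lowest for ALPK3 (0.926), PILRA (0.886) and TAPT1 (0.836) and the highest for HOXB4 (0.873) and PMEPA1 (0.852). Within G659fs it was the lowest for TRA2A (0.902) and the highest for PGAM1 (0.983) and NOMO3 (0.876). In FTL, TAPT1 and NOMO3 construct and GFP libraries overlap; in the other genes they do not.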

How the results depend on the processing

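Over the 105 genes named by rule and 32 alternatives each, 70 genes kept their direction and their side of the threshold throughout; 88 values lost the call, 1 gained it and 2 turned, PGK1 (1.38) and EEF1A1 (-0.029), both with the length offset. The number of changed genes (4127) was 6776 with the GC trend removed, 6741 without R117fs replicates 1 and 4, 7373 with no R117fs and 2508 with no G659fs libraries, and 2620 for R117fs alone; leaving out 1 library gave 2568 (GFP replicate 4) to 6487 (R117fs replicate 4). The number of genes without overlap (1337) was 2017 with the GC trend removed, 983 with the length offset (740 of the 1337 among them), 2222 without R117fs replicates 1 and 4 and 3477 with no R117fs libraries; a single construct gave 5678 (WT), 2767 (R117fs) and 6356 (G659fs), as fewer libraries have to lie on one side. Leaving out 1 library gave 1363 (without WT replicate 2) to 2073, the highest without GFP replicate 1. Genes of these that differed among constructs (215) were 470 with the GC trend removed, 478 without R117fs replicates 1 and 4, 138 with no WT and 51 with no G659fs libraries, and from 121 (without G659fs replicate 3; 123 without replicate 2) to 387 (without R117fs replicate 4). Transcripts without overlap (111) were 15 at 20 percentage points. The cause of these shifts was not tested. With the replicate block 4409 genes changed. Outside their group, 8 of 16 libraries correlated best with a library of their own number, although most libraries there carried another number. Whether this exceeds chance was not tested. DESeq2 called 4615. Leaving out any 1 library moved the rises of unfolded protein response genes and the falls of p53 and ciliary genes, called or without overlap, by no more than 1.5 times; the rise of CFAP45 was lost without GFP replicate 1, 3 or 4, WT replicate 2, 3 or 4, R117fs replicate 1, or G659fs replicate 2 or 4. At low counts, as for LENG9, precision is limited by depth.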

Other observations

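Gene families read from symbols after the values were seen added further groups on each side of GFP. Over all tested genes 2.99% lay above and 4.97% below without overlap, while 11.0% rose and 13.6% fell by edgeR. Of 29 protein-coding MRPS genes, which encode the small subunit of the mitochondrial ribosome, 6 lay above GFP in every construct library (MRPS2, MRPS5, MRPS6, MRPS15, MRPS17 and MRPS24) and none below, and 12 rose (41.4%). Of 49 MRPL genes, of the large subunit, 5 lay above (MRPL12, MRPL17, MRPL20, MRPL27 and MRPL54; 10.2%) and 17 rose (34.7%). TMED2, TMED3 and TMED9, of 11 tested cargo receptors between ER and Golgi, lay above as well.

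On the other side, 6 of 17 lysine demethylase genes lay below GFP in every construct library (KDM3A, KDM3B, KDM4C, KDM5A, KDM5B and KDM6A), while 8 fell and 1 rose. Of 469 zinc finger genes with a ZNF symbol, 33 lay below (7.04%) and none above, and 98 fell (20.9%) while 11 rose. The share below was close to that of the bin of tested genes with the lowest GC content, where 6.8% lay below and 0.149% above. The GC content of the ZNF genes and of the other families in this section was not compared. The part of GC content in their shares was therefore not tested. Of 10 CHD chromatin remodellers CHD2, CHD5 and CHD6 lay below. Of 11 NPIPB genes, near-identical copies whose reads are divided by estimation, 5 lay below and 10 fell.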
